A study of Mus musculus with 32 samples.

Results

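Ketogenesis and fatty acid oxidation are followed here through 9 genes: the transporter *Slc16a1*, the oxidation enzymes *Cpt1a*, *Acads*, *Acadm* and *Acaa2*, the ketone body enzyme *Bdh1*, the nuclear receptor *Ppara*, and *Pdk4* and *Angptl4*, which are known targets of PPAR receptors. They were taken by symbol from the 55291 genes of the count table, over all 32 RNA-Seq libraries of the series, and all 9 passed the filter on low counts in every comparison. The mice were *Dnase1l3*-KO (*Dnase1l3*-/-), with a constitutive deletion throughout the body, or WT (*Dnase1l3*+/+), all on the C57BL/6 background. Untreated mice gave whole colon at D0. The other mice received azoxymethane (AOM), a colon carcinogen, and dextran sulfate sodium (DSS) in the drinking water, which injures the colon epithelium, from 3 months of age. Their whole colon was taken after 1 AOM/DSS cycle (D19) or after 3 cycles (D80), and tumors were taken after the 3 cycles. The age of the D0 mice is not given in the sources used here. Each colon group had 4 libraries of 4 mice in KO and 4 of 4 mice in WT, and tumors came from 3 KO and 5 WT mice, of which 3 in each genotype also gave a D80 colon.

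Colonocytes burn short-chain fatty acids, mainly butyrate made by gut bacteria, as their chief fuel. Butyrate enters through the monocarboxylate transporter that *Slc16a1* encodes and is oxidized in mitochondria by the same spiral of reactions as longer fatty acids, and part of the acetyl-CoA formed can be turned into the ketone bodies acetoacetate and beta-hydroxybutyrate. PPARα, the product of *Ppara*, is a nuclear receptor that binds fatty acids and raises the transcription of oxidation and ketogenesis genes in liver and gut.

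The libraries held between 18951121 and 47623288 counts (median 34333250.5). Levels are given in CPM, counts per 1000000 after TMM scaling over the 32 libraries. A total of 3 libraries stood apart from the other 29: KO mouse 811 at D19, WT mouse 581 at D80 and KO tumor 544. In them, ribosomal protein mRNAs took 7.56% to 12.4% of the counts, against 4.19% to 7.23% in the others, mitochondrially encoded mRNAs took 8.02% to 15.1% against 1.53% to 11.7%, and Spearman's rho between gene length and the level relative to the group lay between -0.61 and -0.43, against -0.28 to 0.59. *Dnase1l3* itself was at 1.64 to 5.02 CPM in KO and 1.79 to 3.59 CPM in WT colon at D0, and at 0.675 to 6.79 CPM in KO and 7.29 to 8.84 CPM in WT colon at D19. At D80 it was at 3.09 to 11.8 CPM in KO and 3.20 to 9.05 CPM in WT colon, and in tumors at 3.57 to 8.50 CPM in KO and 2.04 to 10.4 CPM in WT, with the highest level of all libraries in the D80 colon of KO mouse 544. The adjusted p of KO against WT in edgeR lay between 0.444 and 0.888 over these 4 comparisons, in each of which 0 genes passed. The *Dnase1l3* ranges of the genotypes were apart at D19, with KO the lower, and overlapped at D0, at D80 and in tumors. The paper reports strongly reduced *Dnase1l3* expression along the intestine of this KO strain, and KO serum that was defective in digesting DNA and chromatin. The genotypes are used as labelled. Which exons the deletion removes is not given in the sources used here, and counts were made over the whole gene. Whole colon holds muscle, fat and immune cells beside epithelium, so that in these bulk libraries fewer cells of a type and less RNA per cell cannot be told apart. The summed level of 8 pan-epithelial markers (such as *Epcam* and *Krt8*) was between 6419 and 13228 CPM in every library. D0, D19 and D80 colon shared no prefix of the mouse number in the labels, so any effect of that prefix, whose meaning the labels do not give, and of the stage cannot be told apart in those comparisons, while tumors and D80 colon shared prefixes.

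Windows from 250 bases before to 50 bases after the RefSeq start site (GRCm38.p6) were taken for 7 of the 9 genes. *Bdh1* had 2 start sites. *Acaa2* was left out of this search, and no RefSeq entry was found for *Angptl4*. The windows taken were searched on both strands for AGGTCA, the motif that PPAR receptors recognize as 1 of 2 copies with 1 base between them. The pair itself, with up to 2 mismatches, was in 0 of the 8 windows and in 3.86% of 32851 windows genome-wide. The single AGGTCA was in 2 of the 8 windows, *Acadm* and *Cpt1a*, and in 16.3% of all windows. Both hold it as its reverse complement (capitals), beginning 249 bases before the *Acadm* start site and 94 bases before that of *Cpt1a*. These 2 are printed with *Acads* and *Pdk4*, which have no match, so that windows with and without the motif can be read beside each other. *Acadm*, *Acads* and *Pdk4* fell in both genotypes by D19, and *Cpt1a* passed in neither.
Acadm, chr3:153944594-153944893, minus strand: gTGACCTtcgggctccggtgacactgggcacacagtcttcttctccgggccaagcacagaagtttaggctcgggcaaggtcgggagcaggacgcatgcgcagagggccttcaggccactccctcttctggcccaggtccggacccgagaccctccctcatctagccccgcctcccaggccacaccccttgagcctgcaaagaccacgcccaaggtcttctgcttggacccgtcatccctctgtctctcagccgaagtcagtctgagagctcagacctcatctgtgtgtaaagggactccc
Cpt1a, chr19:3323051-3323350, plus strand: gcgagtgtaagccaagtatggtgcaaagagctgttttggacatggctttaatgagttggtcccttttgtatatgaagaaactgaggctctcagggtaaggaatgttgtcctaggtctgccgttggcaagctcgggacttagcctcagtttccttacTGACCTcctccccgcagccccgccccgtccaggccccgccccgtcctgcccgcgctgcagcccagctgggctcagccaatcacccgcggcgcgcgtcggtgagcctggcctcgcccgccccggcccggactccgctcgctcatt
Acads, chr5:115119297-115119596, minus strand: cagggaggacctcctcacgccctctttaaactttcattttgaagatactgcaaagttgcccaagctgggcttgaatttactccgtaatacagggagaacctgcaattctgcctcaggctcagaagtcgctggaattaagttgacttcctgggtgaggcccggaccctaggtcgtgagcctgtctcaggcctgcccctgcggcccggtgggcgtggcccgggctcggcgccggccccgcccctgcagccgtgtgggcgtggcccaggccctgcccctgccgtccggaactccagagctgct
Pdk4, chr6:5496229-5496528, minus strand: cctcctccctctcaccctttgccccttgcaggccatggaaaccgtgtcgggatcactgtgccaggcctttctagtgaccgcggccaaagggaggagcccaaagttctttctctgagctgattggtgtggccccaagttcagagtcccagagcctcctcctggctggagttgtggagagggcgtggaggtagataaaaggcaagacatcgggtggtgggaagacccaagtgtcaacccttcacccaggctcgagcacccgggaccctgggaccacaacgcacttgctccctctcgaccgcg

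In untreated colon the enzymes and the transporter were abundant and the regulators low. Per kilobase of exon, the mean level at D0 was highest for *Acads*, at 102.7 CPM per kb in KO and 99.9 CPM per kb in WT colon. *Slc16a1* followed at 89.6 CPM per kb in KO and 84.0 CPM per kb in WT colon, and *Acaa2* at 73.5 CPM per kb in KO and 70.6 CPM per kb in WT colon. *Acadm*, *Cpt1a* and *Bdh1* lay between 26.5 and 37.1 CPM per kb in both genotypes. *Pdk4* was at 6.87 CPM per kb in KO and 7.06 CPM per kb in WT colon, *Ppara* at 1.65 CPM per kb in KO and 1.78 CPM per kb in WT colon, and *Angptl4* at 0.766 CPM per kb in KO and 0.505 CPM per kb in WT colon.

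In the annotation (GRCm38) all 9 are protein-coding genes. *Slc16a1* (ENSMUSG00000032902) lies on the plus strand of chromosome 3 from 104638668 to 104658462 and *Acadm* (ENSMUSG00000062908) on its minus strand from 153922357 to 153944632. *Cpt1a* (ENSMUSG00000024900) lies on chromosome 19 from 3322334 to 3385733, *Acads* (ENSMUSG00000029545) on chromosome 5 from 115110299 to 115119346, and *Acaa2* (ENSMUSG00000036880) on chromosome 18 from 74779197 to 74806208. *Bdh1* (ENSMUSG00000046598) lies on chromosome 16 from 31422280 to 31458901 and *Ppara* (ENSMUSG00000022383) on chromosome 15 from 85734983 to 85802819. *Pdk4* (ENSMUSG00000019577) lies on chromosome 6 from 5483351 to 5496309 and *Angptl4* (ENSMUSG00000002289) on chromosome 17 from 33773750 to 33781830.

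**Figure D1:**
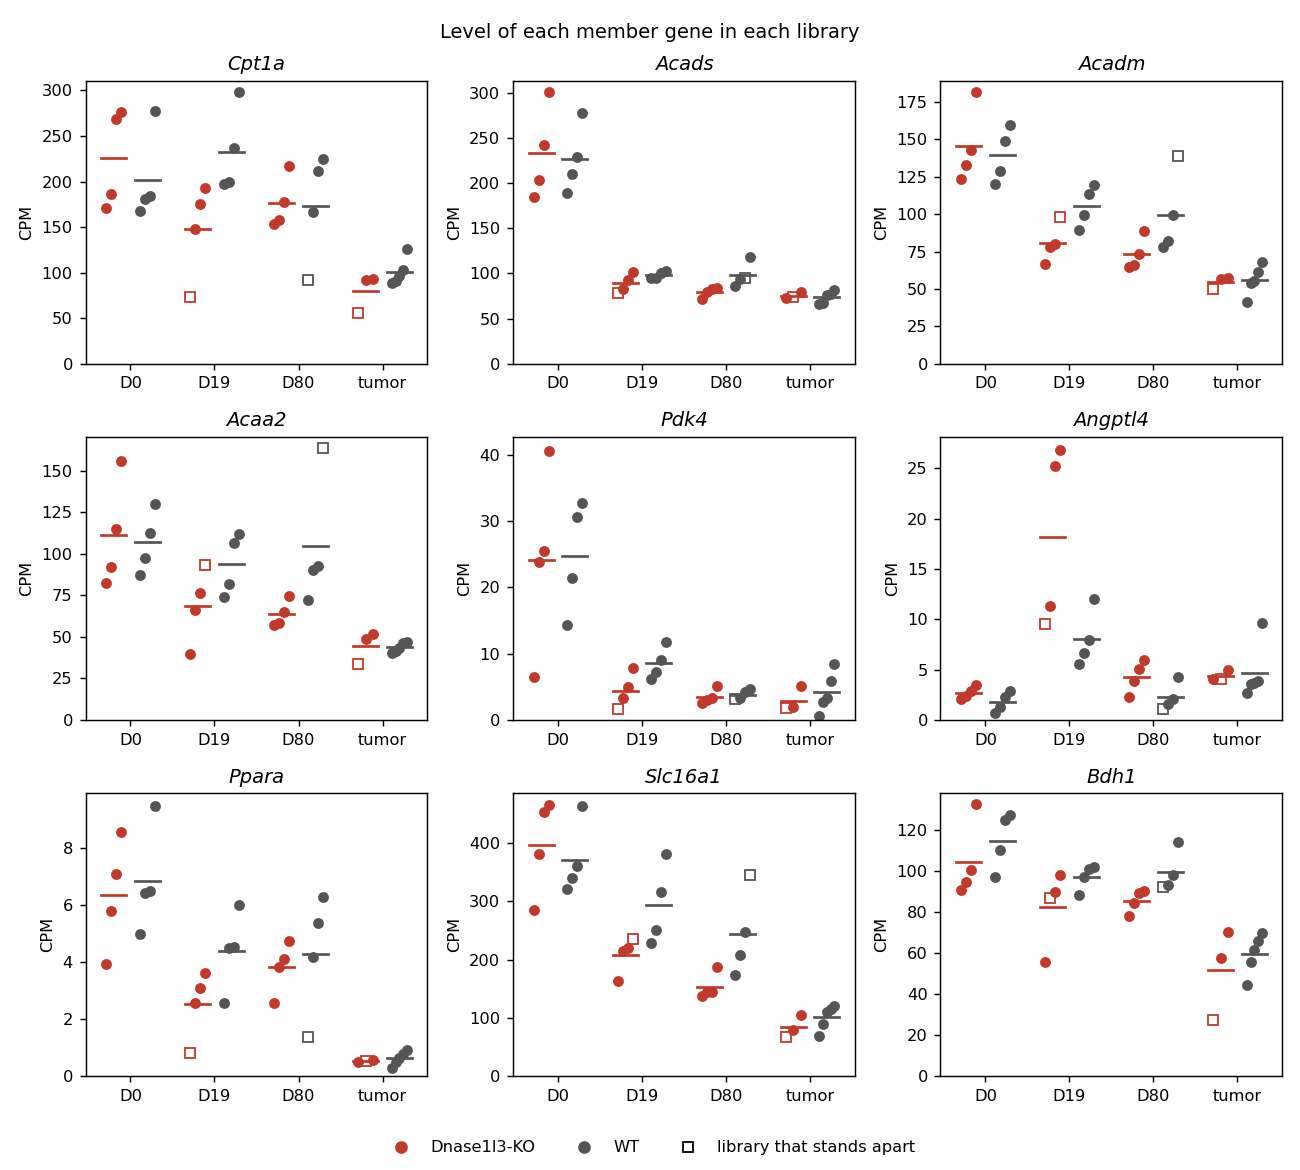
Level in CPM (vertical axis, from 0) of each of the 9 genes in each library, by stage (horizontal axis), with *Dnase1l3*-KO in red left of WT in gray. Each point is 1 library, open squares are the 3 libraries that stand apart, and bars are group means: *Acads* lies at 184 to 301 CPM at D0 in both genotypes and at 118 CPM or less in every later library, and *Angptl4* peaks at D19 with 9.52 to 26.8 CPM in KO and 5.54 to 12.03 CPM in WT colon.

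The first question was how these genes changed after 1 cycle of AOM/DSS and recovery. At D19 *Acads*, which begins the oxidation of butyryl-CoA, and *Pdk4*, the kinase that shuts pyruvate dehydrogenase, fell in both genotypes, while *Angptl4*, a secreted inhibitor of lipoprotein lipase, rose in both. In KO colon, 4 of 9 genes fell and 1 rose by edgeR's quasi-likelihood test (Benjamini-Hochberg adjusted p under 0.05 over all genes), where 3.43% of 19191 genes tested fell and 9.61% rose. In WT colon, 4 fell and 1 rose, where 22.6% of 18570 genes tested fell and 24.2% rose. The median log2 fold change of the 9 genes was -0.86 in KO and -0.38 in WT, against 0.03 in KO and 0.00 in WT over all genes tested.

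*Acads* had 78.0, 83.3, 92.7 and 102 CPM in KO colon at D19, against 184, 204, 242 and 301 CPM in KO colon at D0. The same gene had 95.2, 95.3, 100.4 and 102 CPM in WT colon at D19, against 189.7, 210.1, 229 and 277 CPM in WT colon at D0. In neither genotype did the stages overlap. The log2 fold change was -1.41 (SE 0.21, adjusted p = 0.00171) in KO and -1.25 (SE 0.12, adjusted p = 8e-05) in WT, the lowest adjusted p of the 9 genes in WT. *Acadm*, its counterpart for medium-chain acyl-CoA, had 66.9, 78.0, 80.4 and 98.4 CPM in KO colon at D19, against 123, 133, 143 and 182 CPM in KO colon at D0. WT colon had 89.1, 99.7, 113 and 119.7 CPM at D19, against 120.4, 129, 149 and 159.8 CPM at D0. The stages did not overlap in either genotype, in WT by a narrow margin (119.7 CPM against 120.4 CPM). The log2 fold change was -0.86 (SE 0.20, adjusted p = 0.0175) in KO and -0.44 (SE 0.13, adjusted p = 0.0163) in WT. In WT, 3 of the 9 genes lay wholly below D0 and 1 wholly above. So did 3447 and 4623 of the 18570 genes tested, so that such separation was common there. In KO, 4 of the 9 lay wholly below and 1 wholly above, against 1440 and 2215 of the 19191 genes tested.

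*Slc16a1*, whose product carries butyrate, lactate and ketone bodies, had 163, 215, 220.1 and 236 CPM in KO colon at D19, against 286, 381, 454 and 466 CPM in KO colon at D0. It fell there by 0.95 on the log2 scale (SE 0.23, adjusted p = 0.021). WT colon had 228 to 382 CPM at D19 and 321 to 464 CPM at D0, with a log2 change of -0.38 (SE 0.18, adjusted p = 0.114). *Bdh1*, which interconverts the 2 ketone bodies, fell in WT colon, with 88.3 to 102 CPM at D19 against 97.2 to 128 CPM at D0 and a log2 change of -0.29 (SE 0.10, adjusted p = 0.036). In KO colon its log2 fold change was -0.36 (SE 0.22, adjusted p = 0.391). *Cpt1a*, which attaches carnitine to long-chain fatty acids for entry into mitochondria, and *Acaa2*, the thiolase of the last step of the spiral, did not pass in either genotype. Their log2 fold changes were -0.64 (SE 0.31) and -0.71 (SE 0.29) in KO, and 0.16 (SE 0.19) and -0.23 (SE 0.17) in WT.

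*Pdk4* had 1.59, 3.37, 4.96 and 7.77 CPM in KO colon at D19, against 6.54, 23.8, 25.5 and 40.7 CPM in KO colon at D0. The D0 library at 6.54 CPM (KO mouse 853) lay within the D19 range. In WT colon it had 6.22, 7.19, 9.03 and 11.8 CPM at D19, against 14.4, 21.4, 30.6 and 32.8 CPM at D0, with no overlap. The log2 fold change was -2.47 (SE 0.58, adjusted p = 0.0195) in KO and -1.57 (SE 0.28, adjusted p = 0.00156) in WT. *Angptl4* had 9.52, 11.3, 25.2 and 26.8 CPM in KO colon at D19, against 2.07, 2.42, 2.87 and 3.48 CPM in KO colon at D0. WT colon had 5.54, 6.65, 7.99 and 12.03 CPM at D19, against 0.716, 1.28, 2.27 and 2.88 CPM at D0. Each D19 library lay above each D0 library of its genotype, and the log2 fold change was 2.71 (SE 0.38, adjusted p = 0.00117) in KO and 2.14 (SE 0.39, adjusted p = 0.00175) in WT. *Ppara* had 0.810 to 3.60 CPM in KO colon at D19 and 3.94 to 8.56 CPM at D0, with a log2 change of -1.35 (SE 0.43, adjusted p = 0.0702), and -0.68 (SE 0.28, adjusted p = 0.0667) in WT.

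These D19 calls differed in how often they held when single libraries were left out. Without KO mouse 811, whose library stood apart, *Acaa2* (log2 fold change -0.91) and *Ppara* (-1.07) passed as well in KO, for 6 that fell and 1 that rose, where 10.7% of genes tested fell and 16.5% rose in the fit without it. When each of the 8 KO libraries was left out in turn, between 2 and 7 genes passed, with 2 without KO mouse 872 or KO mouse 804 and 3 without KO mouse 915, 813 or 803. In WT between 3 and 6 passed, with 3 without WT mouse 920. *Acads* and *Angptl4* passed in each of these fits, in both genotypes. The calls of *Bdh1* in WT and of *Slc16a1* in KO were each lost in 6 of 8 omissions, that of *Acadm* in KO in 4 and that of *Pdk4* in KO in 3. Over the omissions the log2 fold change stayed between -0.36 and -0.24 for *Bdh1* in WT, with an edgeR adjusted p of at most 0.0944. For *Slc16a1* in KO it stayed between -1.09 and -0.86, with an adjusted p of at most 0.0747.

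Among the other genes of the pathway at D19, *Aacs*, which uses acetoacetate for lipid synthesis, was at 0.52 (SE 0.22, adjusted p = 0.179) in KO and 0.50 (SE 0.18, adjusted p = 0.0455) in WT colon on the log2 scale. Of 16 other mitochondrial oxidation genes, 0 passed in KO by edgeR (4 at p under 0.05 before adjustment, 1 lower by DESeq2), and in WT 5 fell and 1 rose. Of the 19191 genes tested in KO, 4535 had p under 0.05 before adjustment. Without KO mouse 811, 7 of the 16 fell and 1 rose in KO. *Etfb* and *Etfa*, the subunits of the flavoprotein that takes electrons from the acyl-CoA dehydrogenases, were at -1.18 (SE 0.09) and -0.71 (SE 0.08) on the log2 scale in WT. Of 10 peroxisomal oxidation genes 2 fell in KO (the thiolases *Acaa1a* and *Acaa1b*), and in WT 7 fell and 1 rose.

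Of 12 genes of short-chain fatty acid transport, activation and sensing, 2 rose and 3 fell in KO, and 3 rose and 4 fell in WT. In KO the lactate exporter *Slc16a3* rose by 2.18 (SE 0.20) and *Hcar2*, a receptor for butyrate and beta-hydroxybutyrate, by 3.15 (SE 0.48), while the receptor *Ffar3* fell by 2.53 (SE 0.38), all on the log2 scale. In WT *Bsg*, the chaperone of the *Slc16a1* product, fell by 0.65 (SE 0.09) and *Acsm3* rose by 1.21 (SE 0.17). Of the PPAR list 1 of 15 fell in KO and 4 of 14 fell in WT with 3 that rose, and *Fabp2*, an intestinal fatty acid binding protein, led in both with -2.49 (SE 0.38) in KO and -2.74 (SE 0.20) in WT. In the pyruvate dehydrogenase list 2 of 12 fell in KO, and 4 fell and 3 rose in WT. *Pdk2*, another inhibitory kinase, fell by 1.47 (SE 0.26) in KO and by 0.85 (SE 0.20) in WT on the log2 scale. Beside these list counts, 3.43% of all genes tested fell and 9.61% rose in KO. In WT 22.6% of all genes tested fell and 24.2% rose.

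Markers of other cells moved at the same time. All 8 leukocyte markers rose in both genotypes, and their summed level was 1022 to 1593 CPM in KO colon at D19 against 75.3 to 101 CPM at D0, and 552 to 656 CPM in WT colon at D19 against 51.1 to 102 CPM at D0. Of 8 surface colonocyte markers (such as *Car4* and *Aqp8*) 4 fell in KO and 5 in WT, with a summed level of 6474 to 7565 CPM in KO colon at D19 against 11487 to 19635 CPM at D0, and of 6824 to 9525 CPM in WT colon at D19 against 13044 to 19308 CPM at D0. Smooth muscle markers fell in 3 of 8 in KO and 8 of 8 in WT, with sums of 2964 to 5528 CPM in KO colon at D19 against 4933 to 9412 CPM at D0, and of 4084 to 6397 CPM in WT colon at D19 against 6936 to 13090 CPM at D0. Of the pan-epithelial markers 0 of 8 passed in KO by edgeR (3 at p under 0.05 before adjustment, 1 lower by DESeq2) and 2 of 8 fell in WT, with sums of 6419 to 8520 CPM in KO colon at D19 against 8310 to 11485 CPM at D0, and of 8051 to 9977 CPM in WT colon at D19 against 7719 to 12002 CPM at D0. Of the 19191 genes tested in KO, 4535 had p under 0.05 before adjustment. The part of these markers' cells in the changes of the 9 genes was not tested.

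**Figure D2:**
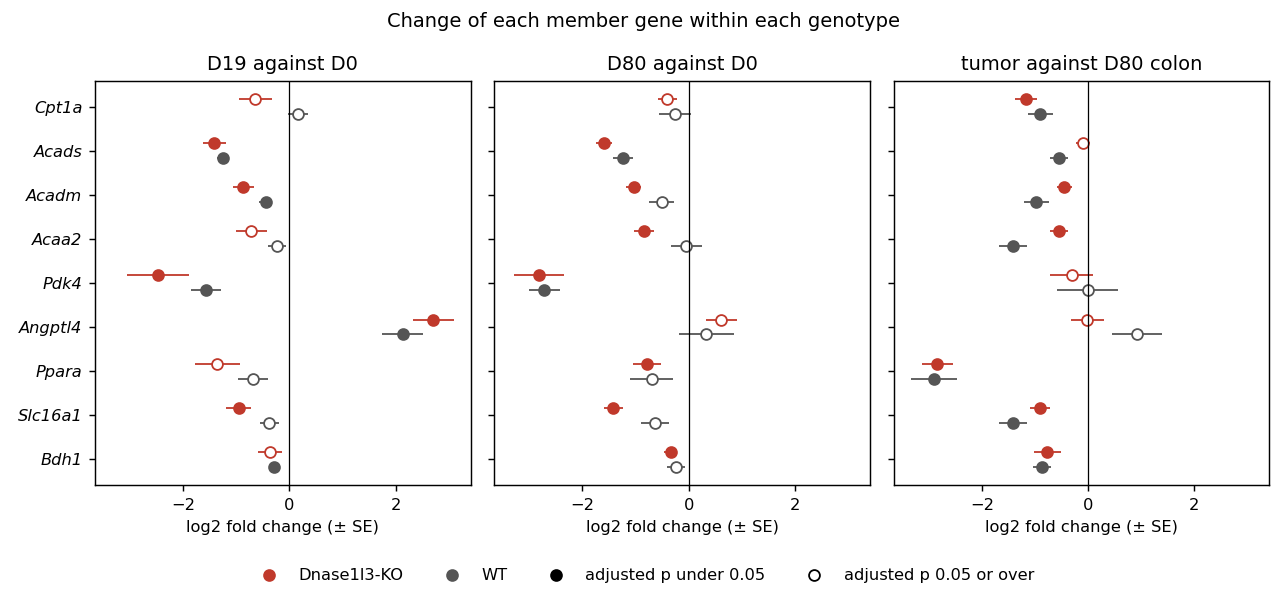
Log2 fold change with its SE (horizontal axis) of each of the 9 genes (vertical axis) at D19 against D0, at D80 against D0 and in tumors against D80 colon, *Dnase1l3*-KO in red above WT in gray. Filled points have an adjusted p under 0.05 in edgeR: *Acads* and *Pdk4* are filled in both genotypes in the first 2 panels, *Angptl4* in the first, and *Ppara* sits at -2.84 in KO and -2.90 in WT in the third.

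After 3 cycles, *Acads* and *Pdk4* were again below D0 in both genotypes, and in KO colon most of the other genes were too. In KO colon at D80, 7 of 9 genes fell against D0 and 0 rose, where 24.8% of 19031 genes tested fell. In WT colon 2 fell and 0 rose, where 4.32% of 18419 genes tested fell. The median log2 fold change of the 9 genes was -0.85 in KO and -0.50 in WT, against 0.02 in KO and 0.05 in WT over all genes tested. Without WT mouse 581, whose library stood apart, 4 of 9 genes fell in WT, where 23.3% of genes tested fell: *Acads* (-1.25), *Acadm* (-0.75), *Pdk4* (-2.66) and *Slc16a1* (-0.89). In that mouse *Acadm*, *Acaa2* and *Slc16a1* were at 139, 164 and 345 CPM, above the other 3 WT mice at D80, and *Cpt1a* and *Ppara* at 91.6 and 1.35 CPM, below them.

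*Acads* had 72.0, 79.3, 83.0 and 84.0 CPM in KO colon at D80, and 85.8, 93.5, 94.9 and 118 CPM in WT colon at D80, all under the D0 libraries. The log2 fold change against D0 was -1.59 (SE 0.15, adjusted p = 2.53e-05) in KO and -1.23 (SE 0.19, adjusted p = 0.0044) in WT. *Pdk4* had 2.58, 3.05, 3.36 and 5.08 CPM in KO colon at D80, and 3.21, 3.32, 4.18 and 4.63 CPM in WT colon at D80. Each of these lay below each D0 library of its genotype, with a log2 change of -2.82 (SE 0.47, adjusted p = 0.000772) in KO and -2.71 (SE 0.29, adjusted p = 0.00117) in WT.

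*Slc16a1* had 138, 144, 145 and 187 CPM in KO colon at D80, against 286 to 466 CPM in KO colon at D0, and fell by 1.41 on the log2 scale (SE 0.17, adjusted p = 0.000127). WT colon had 174, 207, 247 and 345 CPM at D80, with a log2 change of -0.63 (SE 0.27, adjusted p = 0.173). *Acadm* had 64.5, 66.0, 73.2 and 88.6 CPM in KO colon at D80 and a log2 change of -1.03 (SE 0.14, adjusted p = 0.000261). In WT colon it had 78.0, 82.0, 99.3 and 139 CPM and a log2 change of -0.50 (SE 0.24, adjusted p = 0.223). *Acaa2* had 56.9, 58.4, 65.1 and 74.9 CPM in KO colon at D80, against 82.3, 92.3, 115 and 156 CPM in KO colon at D0, a log2 change of -0.85 (SE 0.19, adjusted p = 0.0037). In WT colon it had 72.3, 90.2, 92.8 and 164 CPM at D80, and its log2 fold change was -0.04 (SE 0.29). With *Acads*, *Pdk4* and *Bdh1* they make 6 of 9 genes whose KO colon libraries at D80 all lay below those at D0, as 20.4% of genes tested did.

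The smaller D80 changes in KO colon were those of *Ppara* and *Bdh1*. *Ppara* had 2.55 to 4.74 CPM in KO colon at D80 against 3.94 to 8.56 CPM at D0, a log2 change of -0.78 (SE 0.26, adjusted p = 0.0291), and *Bdh1* had 78.1 to 90.7 CPM at D80 against 91.1 to 133 CPM at D0, a log2 change of -0.34 (SE 0.12, adjusted p = 0.0412). Each of these 2 calls was lost when any 1 of KO mice 915, 872, 527, 543 and 544 was left out. *Cpt1a* did not pass, with log2 fold changes of -0.40 (SE 0.18, adjusted p = 0.0932) in KO and -0.25 (SE 0.30, adjusted p = 0.668) in WT. *Angptl4* did not pass against D0 either, with 2.30 to 5.98 CPM in KO and 1.13 to 4.24 CPM in WT colon at D80.

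Set against D19, 1 of the 9 genes passed at D80 in KO colon and 0 in WT colon. *Angptl4* fell by 2.08 on the log2 scale in KO colon (SE 0.40, adjusted p = 0.0387), with 2.30 to 5.98 CPM at D80 against 9.52 to 26.8 CPM at D19, where 0.461% of 19523 genes tested fell. This call was lost when any 1 of 7 of the 8 libraries was left out, and remained without KO mouse 811. In WT colon 0 of 9 genes passed by edgeR, where 0.0104% of 19202 genes tested did. Before adjustment 2 of 9 had p under 0.05, as did 1002 of the 19202 genes. DESeq2 called the same 2 of 9, *Angptl4* and *Pdk4*, and its share over all genes is not given here. *Angptl4* had 1.13, 1.62, 2.06 and 4.24 CPM in WT colon at D80 against 5.54, 6.65, 7.99 and 12.03 CPM at D19, a log2 change of -1.80 (SE 0.41, adjusted p = 0.42). For *Pdk4* it was -1.14 (SE 0.24, adjusted p = 0.373), and both lay wholly below D19, as 3.94% of genes tested did.

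In the wider pathway at D80, 10 of 16 mitochondrial oxidation genes fell and 1 rose in KO colon, and 7 of 10 peroxisomal genes fell. In WT colon edgeR called 0 of the 16 (2 at p under 0.05 before adjustment, 1 higher by DESeq2) and 0 of the 10 (5 at p under 0.05 before adjustment, 1 lower by DESeq2). Of the 18419 genes tested there, 4766 had p under 0.05 before adjustment. Without WT mouse 581, 7 of the 16 fell and 1 rose in WT, and 6 of the 10 fell. *Etfb* fell by 1.33 (SE 0.13), *Hadh*, the short-chain hydroxyacyl-CoA dehydrogenase, by 1.01 (SE 0.13) and *Etfa* by 0.87 (SE 0.11) in KO, while *Acsl1*, which activates long-chain fatty acids, rose by 0.97 (SE 0.09), all on the log2 scale. In WT their log2 fold changes were -0.74 (SE 0.32) for *Etfb*, -0.34 (SE 0.26) for *Etfa*, -0.23 (SE 0.30) for *Hadh* and 0.83 (SE 0.27) for *Acsl1*. *Aacs* was at 1.01 (SE 0.16) in KO and 0.86 (SE 0.20) in WT on the log2 scale, past the threshold in both. Of 12 short-chain fatty acid genes 7 fell and 2 rose in KO, and 1 fell and 4 rose in WT, among them *Slc16a3* with 2.02 (SE 0.25) in KO and 1.26 (SE 0.29) in WT. Of the PPAR list 5 of 15 fell in KO, and in WT 1 of 14 fell and 1 rose. Of 12 pyruvate dehydrogenase genes 5 fell and 2 rose in KO, with the pyruvate carrier subunits *Mpc2* at -1.22 (SE 0.08) and *Mpc1* at -0.67 (SE 0.12), and 1 fell and 1 rose in WT. Over all genes tested, 4729 of 19031 fell and 5411 rose in KO. In WT 796 of 18419 fell and 1578 rose with mouse 581, and 4400 of 18919 fell without it.

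At D80 all 8 leukocyte markers were above D0 in both genotypes, with sums of 747 to 1016 CPM in KO and 391 to 742 CPM in WT colon. Surface colonocyte markers fell in 7 of 8 in KO and 1 of 8 in WT, with sums of 5765 to 7635 CPM in KO and 7803 to 9501 CPM in WT colon. Smooth muscle markers fell in 8 of 8 in KO and 4 of 8 in WT, with sums of 2290 to 3603 CPM in KO and 3677 to 4744 CPM in WT colon. Pan-epithelial sums were 8683 to 9558 CPM in KO and 8332 to 11290 CPM in WT colon, and 1 of 8 fell in each. Their part in these changes was not tested.

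**Figure D3:**
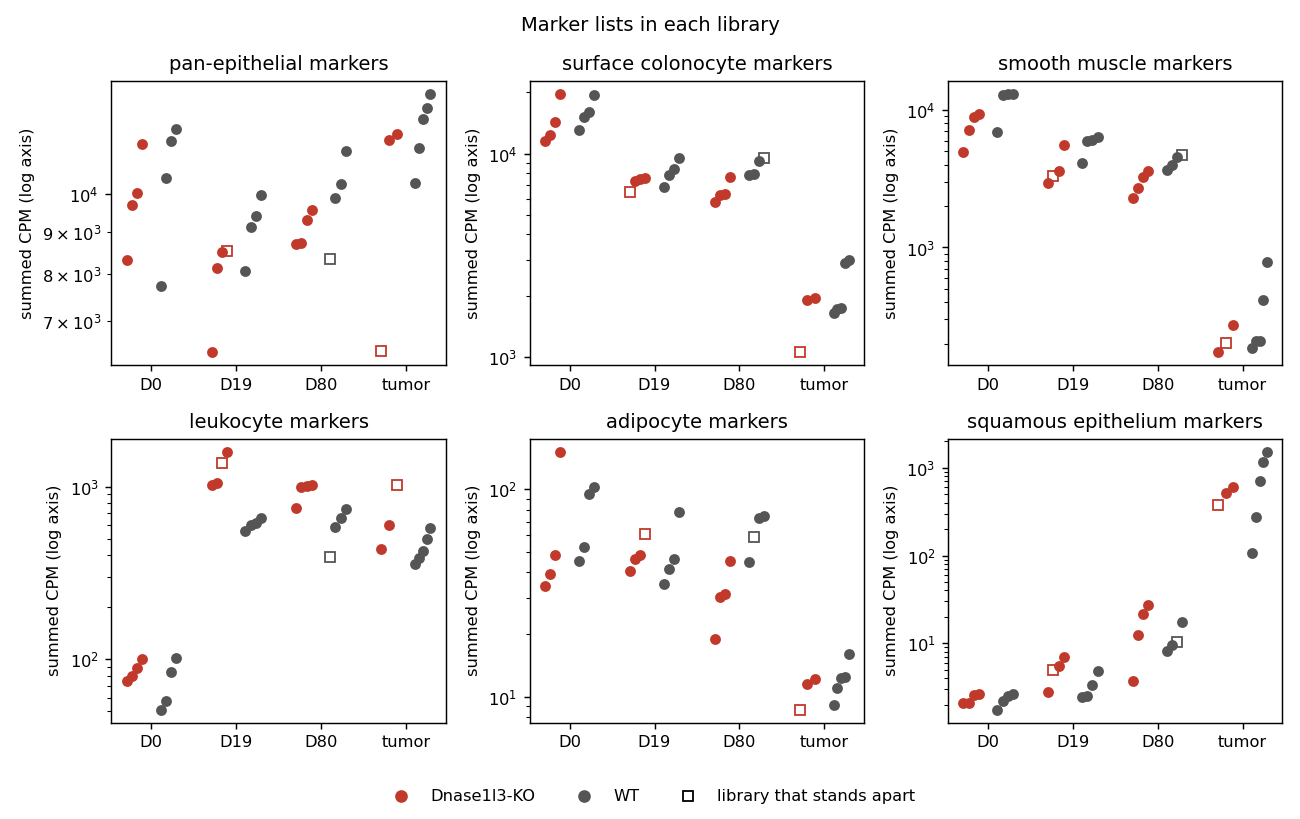
Summed level in CPM (vertical axis, log scale) of 6 lists of marker genes in each library, by stage (horizontal axis), *Dnase1l3*-KO in red left of WT in gray, open squares for the libraries that stand apart. Tumors have 173 to 780 CPM of smooth muscle markers and 107 to 1530 CPM of squamous epithelium markers, while D80 colon has 2290 to 4744 CPM and 3.71 to 27.2 CPM of them.

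Tumors were set against D80 colon of the same genotype. *Ppara* was down by more than 2.8 on the log2 scale in both genotypes, and the transporter, *Cpt1a*, *Acadm*, *Acaa2* and *Bdh1* fell in both as well. In KO tumors 6 of 9 genes fell and 0 rose, where 24.7% of 19457 genes tested fell. In WT tumors 7 fell and 0 rose, where 17.2% of 19007 genes tested fell, the additional gene being *Acads*. The median log2 fold change of the 9 genes was -0.54 in KO and -0.90 in WT, against 0.01 in KO and -0.06 in WT over all genes tested.

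*Ppara* had 0.507, 0.536 and 0.572 CPM in KO tumors, against 2.55, 3.84, 4.09 and 4.74 CPM in KO colon at D80. In WT tumors it had 0.300, 0.501, 0.634, 0.759 and 0.909 CPM, against 1.35, 4.18, 5.35 and 6.27 CPM in WT colon at D80. No tumor reached the lowest colon library, and the log2 fold change was -2.84 (SE 0.29, adjusted p = 0.000429) in KO and -2.90 (SE 0.44, adjusted p = 0.00125) in WT. *Slc16a1* had 67.7, 79.1 and 104 CPM in KO tumors, against 138, 144, 145 and 187 CPM in KO colon at D80. In WT tumors it had 69.5, 88.7, 110.1, 115 and 121 CPM, against 174, 207, 247 and 345 CPM in WT colon at D80. Tumors lay below colon throughout, with a log2 change of -0.90 (SE 0.19, adjusted p = 0.00644) in KO and -1.42 (SE 0.26, adjusted p = 0.00332) in WT.

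*Cpt1a* had 55.2, 92.2 and 93.5 CPM in KO tumors, against 153, 158, 177 and 218 CPM in KO colon at D80. In WT tumors it had 88.2, 91.2, 96.4, 103 and 126 CPM, against 91.6, 167, 212 and 224 CPM in WT colon at D80, so that only WT mouse 581 overlapped with tumors. The log2 fold change was -1.17 (SE 0.21, adjusted p = 0.00375) in KO and -0.90 (SE 0.24, adjusted p = 0.02) in WT. *Acaa2* had 33.5, 48.5 and 51.9 CPM in KO tumors and 40.3 to 46.7 CPM in WT tumors, against 56.9 to 74.9 CPM in KO colon and 72.3 to 164 CPM in WT colon at D80. It fell by 0.54 on the log2 scale in KO (SE 0.17, adjusted p = 0.028) and by 1.41 in WT (SE 0.26, adjusted p = 0.00311). Without the libraries that stand apart the 2 log2 fold changes were -0.39 (SE 0.13) in KO and -1.06 (SE 0.10) in WT. *Acadm* fell by 0.45 (SE 0.15, adjusted p = 0.0379) in KO and by 0.97 (SE 0.24, adjusted p = 0.0122) in WT on the log2 scale, with 49.7 to 57.1 CPM in KO tumors and 41.4 to 68.3 CPM in WT tumors.

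*Bdh1* had 27.4, 57.9 and 70.2 CPM in KO tumors, with the lowest in tumor 544, and 44.7 to 69.7 CPM in WT tumors. It fell by 0.77 in KO (SE 0.26, adjusted p = 0.0401) and by 0.87 in WT (SE 0.17, adjusted p = 0.00442) on the log2 scale, and without the libraries that stand apart the log2 fold change in KO was -0.46 (SE 0.11). *Acads* had 73.1 to 79.4 CPM in KO tumors against 72.0 to 84.0 CPM in KO colon at D80, a log2 change of -0.10 (SE 0.13, adjusted p = 0.56). In WT tumors it had 66.1 to 81.2 CPM against 85.8 to 118 CPM in WT colon at D80, a log2 change of -0.55 (SE 0.16, adjusted p = 0.0295). *Pdk4* and *Angptl4* did not pass in either genotype, with log2 fold changes of -0.31 (SE 0.40) and -0.01 (SE 0.31) in KO and of -0.01 (SE 0.58) and 0.92 (SE 0.47) in WT. *Pdk4* ranged widely among WT tumors, between 0.533 CPM in tumor 534 and 8.40 CPM in tumor 579.

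With the mouse as a replicate block, over the 3 mice of each genotype that gave both tissues, 3 of 9 genes fell in KO tumors (*Cpt1a*, *Ppara* and *Slc16a1*) in place of 6, where 18.3% of genes tested fell. In WT tumors 7 fell, where 25.6% of genes tested fell, and *Angptl4* rose by 0.82 (SE 0.20, adjusted p = 0.023) in this paired fit, where 23.0% rose. This fit also leaves out the tumors and colons without a partner, and without KO mouse 535 alone, with no block, the same 3 genes passed in KO. Leaving out 1 library at a time left 3 to 6 genes in KO and 5 to 7 in WT, and *Acadm*, *Acaa2* and *Bdh1* were all lost in KO without KO mouse 535 or 544 at D80 or KO tumor 543. In WT the call of *Acads* was lost in 6 of 9 omissions and that of *Cpt1a* in 3. Shares over all genes in these omissions are not given here, so whether these shifts are particular to the 9 genes is not shown.

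In the wider pathway *Acat1*, the mitochondrial acetoacetyl-CoA thiolase, was at -0.77 (SE 0.14) in KO and -1.16 (SE 0.18) in WT tumors on the log2 scale, and fell in both. Of 16 mitochondrial oxidation genes 5 fell and 1 rose in KO and 8 fell in WT, led by *Acadvl*, the dehydrogenase for very long chains, at -0.69 (SE 0.13) in KO and -1.08 (SE 0.18) in WT. Of 10 peroxisomal genes 4 fell in KO and 5 in WT. Among them *Pex11a*, which divides peroxisomes, was at -1.21 (SE 0.19) in KO and -1.56 (SE 0.21) in WT, and *Ehhadh*, the bifunctional enzyme, at -1.35 (SE 0.25) in KO and -1.68 (SE 0.25) in WT.

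Among the 6 pathway lists, short-chain fatty acid genes had the lowest median: 9 of 12 fell in each genotype, while 1 rose in KO and 2 in WT, and the median over the list was -1.88 in KO and -2.53 in WT on the log2 scale. The butyrate transporter *Slc5a8* was at -3.16 (SE 0.31) in KO and -3.55 (SE 0.61) in WT, the transporter *Slc16a7* at -3.31 (SE 0.35) in KO and -3.75 (SE 0.39) in WT, and the receptor *Ffar2* at -2.69 (SE 0.35) in KO and -2.84 (SE 0.31) in WT. *Slc16a3* rose by 1.18 (SE 0.27) in KO and by 1.98 (SE 0.31) in WT on the log2 scale. The list shares *Slc26a3* with the surface colonocyte markers. Of the PPAR list 7 of 15 fell and 2 rose in KO, and 5 of 15 fell and 2 rose in WT, with *Fabp2* at -5.83 (SE 0.55) in KO and -6.58 (SE 0.56) in WT. Of 12 pyruvate dehydrogenase genes 4 fell and 1 rose in KO and 5 fell in WT, *Pdha1*, the catalytic subunit, at -0.53 (SE 0.14) in KO and -0.86 (SE 0.20) in WT. Over all genes tested, 4800 of 19457 fell and 4234 rose in KO, and 3273 of 19007 fell and 2357 rose in WT.

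Markers of other cells differed between tumors and colon as well. Pan-epithelial sums were 6448 to 11822 CPM in KO and 10304 to 13228 CPM in WT tumors, and 0 of 8 fell, with 2 in KO and 1 in WT that rose. Surface colonocyte markers fell in 8 of 8 in KO and 7 of 8 in WT, to sums of 1053 to 1952 CPM in KO and 1635 to 3000 CPM in WT tumors. Smooth muscle markers fell in 8 of 8 in both, to 173 to 274 CPM in KO and 185 to 780 CPM in WT tumors. Of 7 adipocyte markers 6 fell in each, and *Adipoq*, which defines fat cells, had 0 counts in 3 of 3 KO and 4 of 5 WT tumors. Squamous epithelium markers rose in 6 of 6 in both, to 374 to 610 CPM in KO and 107 to 1530 CPM in WT tumors, while leukocyte markers fell in 4 of 8 in KO, and in WT 1 fell and 2 rose. The part of these markers' cells in the tumor values of the 9 genes was not tested.

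The genotypes were then compared within each stage. At D0, 0 of 9 genes passed by edgeR, where 0.0% of 18175 genes tested did, and calls by DESeq2 numbered 0. Before adjustment 0 of 9 had p under 0.05, against 1750 of the 18175 genes. Log2 fold changes of KO over WT lay between -0.13 (*Bdh1*, SE 0.14) and 0.62 (*Angptl4*, SE 0.37, adjusted p = 0.600). *Angptl4* had 2.07 to 3.48 CPM in KO and 0.716 to 2.88 CPM in WT colon.

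At D19, 0 of 9 genes passed by edgeR, where 0.0% of 19545 genes tested did, and calls by DESeq2 numbered 0. The lowest adjusted p over all genes in this edgeR fit was 0.298. The paper, which used DESeq2, reports a cluster of immune and inflammatory genes strongly induced in KO and modestly in WT colon at D19. The absence of calls in this fit therefore does not show that the genotypes were alike. Before adjustment 2 of 9 had p under 0.05, as did 2213 of the 19545 genes. The 2 were *Angptl4* with a log2 change of 1.19 (SE 0.37, adjusted p = 0.361) and *Pdk4* with -0.95 (SE 0.42, adjusted p = 0.440). *Angptl4* had 9.52, 11.3, 25.2 and 26.8 CPM in KO colon against 5.54, 6.65, 7.99 and 12.03 CPM in WT colon. The pair of KO mice at 25.2 and 26.8 CPM were 804 and 803, which share a label prefix with WT mouse 805, at 12.03 CPM and highest of the WT mice. With the prefix as a block the log2 fold change was 0.93 (SE 0.24), and over the prefixes that both genotypes share 0.98 (SE 0.52). WT mice 685 and 686, whose prefix has no KO mouse, do not enter either genotype contrast. *Cpt1a* had 73.1, 148, 176 and 193 CPM in KO colon against 197, 199, 236 and 298 CPM in WT colon, the only one of the 9 genes whose genotypes did not overlap at this stage, as 4.85% of genes tested did with KO below WT. Its log2 fold change was -0.66 (SE 0.29, adjusted p = 0.442), and -0.45 (SE 0.18) without KO mouse 811, which was lowest.

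At D80, 0 of 9 genes passed by edgeR, where 0.0% of 18899 genes tested did, and calls by DESeq2 numbered 0. Before adjustment 2 of 9 had p under 0.05, as did 1049 of the 18899 genes. The 2 were *Acaa2* with a log2 change of -0.79 (SE 0.30, adjusted p = 0.681) and *Slc16a1* with -0.73 (SE 0.27, adjusted p = 0.681). Without WT mouse 581 they were -0.42 (SE 0.12) and -0.45 (SE 0.14), both smaller in size. *Acads* had 72.0, 79.3, 83.0 and 84.0 CPM in KO colon against 85.8, 93.5, 94.9 and 118 CPM in WT colon, and *Bdh1* had 78.1, 84.4, 89.3 and 90.7 CPM in KO colon against 92.3, 93.4, 98.3 and 114 CPM in WT colon. These were the 2 genes of the 9 whose genotypes did not overlap, as 1.91% of genes tested did with KO below WT. Their log2 fold changes were -0.34 (SE 0.16, adjusted p = 0.681) and -0.26 (SE 0.15, adjusted p = 0.681), and -0.14 (SE 0.09) and -0.13 (SE 0.08) with the label prefix as a block. Only prefix 76 holds both genotypes at D80, so that block compares KO mice 543 and 544 with WT mice 541 and 542 alone. *Angptl4* was at 0.89 (SE 0.43) at D80, and at 0.21 (SE 0.48) with that block.

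Between tumors, 0 of 9 genes passed by edgeR, where 0.0% of 18961 genes tested did, 0 reached p under 0.05 before adjustment, and calls by DESeq2 numbered 0. Log2 fold changes of KO over WT lay between -0.48 (*Pdk4*, SE 0.70) and 0.09 (*Acads*, SE 0.14). *Acadm* had 49.7 to 57.1 CPM in KO against 41.4 to 68.3 CPM in WT tumors and a log2 change of 0.01 (SE 0.16). Of the 6 pathway lists 0 of 71 genes tested passed by edgeR in each of the 4 genotype comparisons. Before adjustment 4 had p under 0.05 at D0, 10 at D19, 7 at D80 and 1 in tumors, and DESeq2 called 1 higher at D0, 2 higher and 1 lower at D19, and 0 at D80 and in tumors. Over all genes tested, 1750 had such a p at D0, 2213 at D19, 1049 at D80 and 1254 in tumors. Summed leukocyte markers were 1022 to 1593 CPM in KO against 552 to 656 CPM in WT colon at D19, and 747 to 1016 CPM in KO against 391 to 742 CPM in WT colon at D80. At D80 surface colonocyte markers summed to 5765 to 7635 CPM in KO against 7803 to 9501 CPM in WT colon (median log2 fold change -1.13, 4 of 8 at p under 0.05 before adjustment), and adipocyte markers to 18.9 to 45.1 CPM in KO against 44.5 to 74.7 CPM in WT colon (median -1.48, 6 of 7). Smooth muscle markers summed to 2290 to 3603 CPM in KO against 3677 to 4744 CPM in WT colon (median -0.53, 3 of 8), and 0 marker genes passed by edgeR after adjustment, while DESeq2 called 1 adipocyte marker lower. The part of these cells in the genotype values was not tested.

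**Figure D4:**
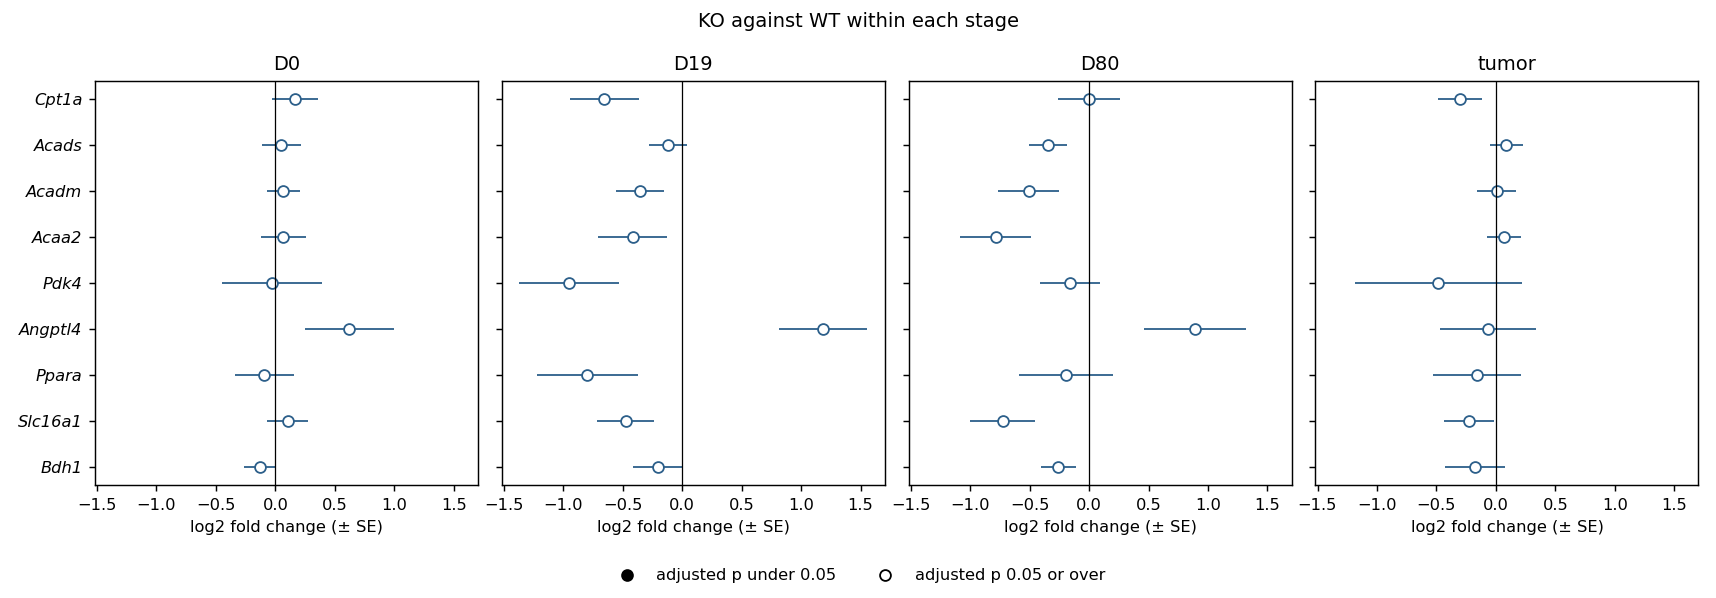
Log2 fold change of *Dnase1l3*-KO over WT with its SE (horizontal axis) for each of the 9 genes (vertical axis) at D0, D19 and D80 and between tumors. All points are open, since no gene had an adjusted p under 0.05 in edgeR, and *Angptl4* is farthest to the right at D19, at 1.19 (SE 0.37).

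Whether the change differed between genotypes was tested as an interaction, the KO change minus the WT change. For D19 against D0, 0 of 9 genes passed by edgeR, where 0.0298% of 20149 genes tested did, and DESeq2 called 0. Before adjustment 1 of 9 had p under 0.05, as did 1643 of the 20149 genes. The 1 of 9 was *Cpt1a*, with a difference of -0.81 (SE 0.38, adjusted p = 0.612) on the log2 scale. For D80 against D0, 0 of 9 passed, where 0.0% of 19668 genes tested did, and DESeq2 called 0. Before adjustment 2 of 9 had p under 0.05, as did 1542 of the 19668 genes. The 2 were *Acaa2* at -0.79 (SE 0.36, adjusted p = 0.560) and *Slc16a1* at -0.77 (SE 0.32, adjusted p = 0.560), so the 7 calls in KO and 2 in WT at D80 are not shown to differ between genotypes. For tumors against D80 colon, 0 of 9 passed, where 0.0% of 20391 genes tested did, and DESeq2 called 0. Before adjustment 2 of 9 had p under 0.05, as did 2385 of the 20391 genes. The 2 were *Acaa2* at 0.87 (SE 0.34, adjusted p = 0.419) and *Acads* at 0.45 (SE 0.21, adjusted p = 0.422). Of the 6 pathway lists 0 of 72 genes tested passed in each interaction by edgeR, with 7, 9 and 10 at p under 0.05 before adjustment for D19, D80 and tumors, and DESeq2 called 1 higher and 3 lower for D19 and 0 for D80 and tumors. The stage comparisons of a genotype share their D0 or D80 libraries.

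The genes' levels were also set beside each other across the 32 libraries, as a description: libraries share their stage, depth and RNA quality. Pearson's r of log2 CPM over the 36 pairs of genes ranged between -0.45 and 0.95 with a median of 0.69. *Acadm*, *Acaa2* and *Slc16a1* were most alike, with r between 0.91 and 0.95 for their 3 pairs, and *Cpt1a* and *Ppara* had an r of 0.89. *Angptl4* had a negative r with each of the other 8 genes, between -0.45 with *Acads* and -0.04 with *Cpt1a*. With the mean of each group taken out, the median r was 0.25 over the 32 libraries and 0.43 over the 29 without those that stand apart. The r of *Cpt1a* with *Slc16a1* was 0.22 over the 32 libraries and 0.83 over the 29, that of *Cpt1a* with *Acadm* 0.01 and 0.76, and that of *Acadm* with *Acaa2* 0.81 and 0.71.

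**Figure D5:**
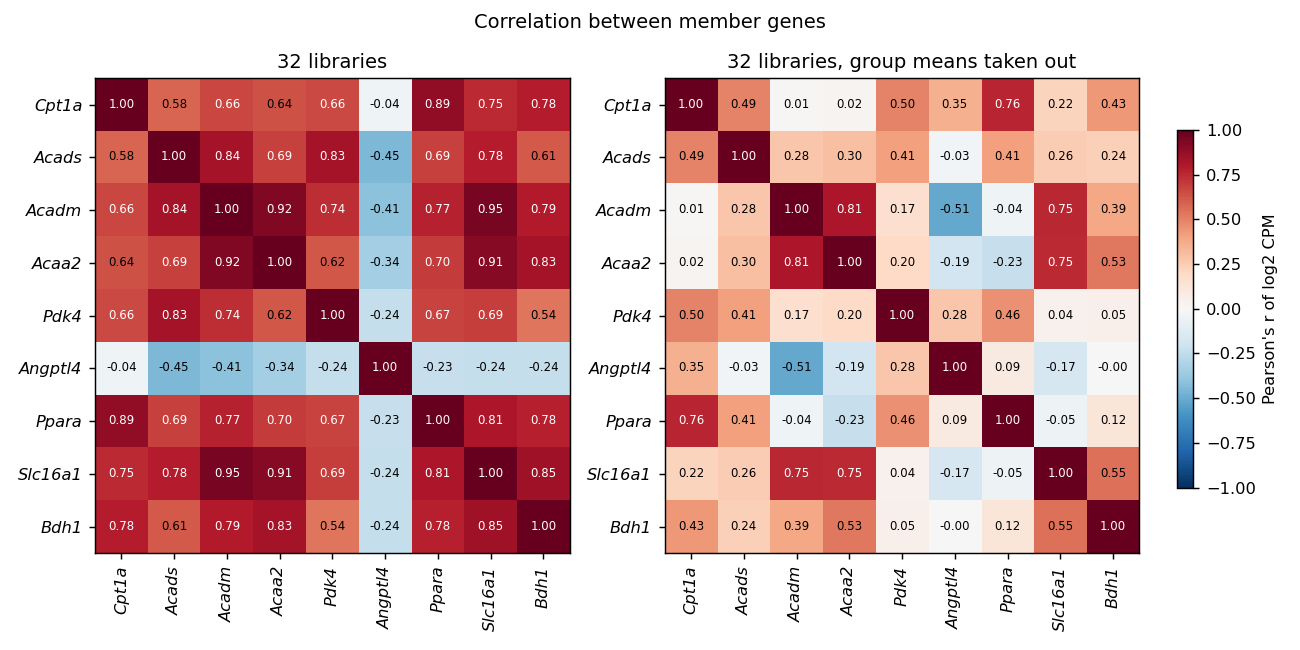
Pearson's r of log2 CPM for each pair of the 9 genes (rows and columns) over 32 libraries, left as measured and right with each group's mean taken out, with the color scale running from -1 to 1. The *Angptl4* row is negative on the left, between -0.45 and -0.04, and the right panel ranges between -0.51 and 0.81.

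Of 11047 genes with a mean of at least 5 CPM, 3 were named as most like each member over the 32 libraries. *Acadm* was nearest to *Cbr1* (r = 0.98), *Sdr42e1* (0.98) and *Hadh* (0.97), and *Acaa2* to *Acadvl* (0.96), *Retsat* (0.96) and *Fahd1* (0.95). *Acads* was nearest to *Coq9* (0.96), *Adck2* (0.96) and *Mpst* (0.95), *Slc16a1* to *Entpd5* (0.97), *Cbr1* (0.97) and *Ugdh* (0.96), and *Cpt1a* to *Vwa8* (0.96), *Vdr* (0.95) and *Nr3c2* (0.95). *Ppara* was nearest to *Igdcc4* (0.98), *Plin4* (0.97) and *Dixdc1* (0.97), and *Bdh1* to *Pparg* (0.92), *Otc* (0.92) and *Afg1l* (0.91). *Angptl4* was nearest to the interleukin 1 receptor *Il1r1* (0.89), the growth factor *Ereg* (0.82) and *Lrrc32* (0.78), and *Pdk4* to *Adra2a* (0.88), *Kctd17* (0.86) and *Slc25a51* (0.84). With group means taken out, *Acadm* was again near *Hadh* (0.94) and *Acaa2* near *Hadhb* (0.92) and *Acadvl* (0.91), while *Angptl4* reached 0.73 with *Fgfr1op*. Without the libraries that stand apart, those nearest to *Acads* in this measure were *Acaa1b* (0.88), *Slc27a4* (0.85) and *Acaa1a* (0.85).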

How the data were processed

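RNA from whole colon and tumors of *Dnase1l3*-KO and WT mice was sequenced single-end (75 nt), 1 library per mouse and tissue. Per the labels and methods, the authors used FastQC 0.11.5 for read quality, STAR for alignment (mm10) and the subread package for raw counts per gene, and these deposited counts were used unchanged. Whether counting used strand is not given in the sources used here, so reads of a gene and of one antisense to it cannot be told apart. The deposited values are whole-number counts for 55291 genes in 32 libraries, and 0 sample columns were left unused. Totals ranged from 18951121 to 47623288.

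Groups came from the sample labels. Members and lists were chosen with earlier results of these data known. Each comparison was fitted over all genes, on only the groups involved, in R 4.3.3 by the quasi-likelihood test of edgeR 4.0.16 (legacy mode, with TMM scaling and the filterByExpr filter). A gene passed at a Benjamini-Hochberg adjusted p under 0.05. Shares of genes that passed are those of edgeR, and DESeq2 counts are given without such a share. SE is the log2 fold change divided by the square root of F. Named were all 9 members, up to 4 genes of each pathway list with the smallest p, and the 3 genes most like each member in log2 CPM (prior count 1, genes with a mean of at least 5 CPM, without predicted genes and pseudogenes), with and without group means. Cell marker lists were pan-epithelial, surface colonocyte, smooth muscle, adipocyte, leukocyte, squamous epithelium and skeletal muscle (6 genes, 5.15 to 36.2 CPM summed per library). Tried as alternatives were RLE size factors, DESeq2 1.42.0, no filter on low counts (at least 1 count in all), at least 10 counts in each library, a single fit of all libraries, the label prefix as a block or only prefixes shared by both genotypes, the mouse as a replicate block, and omission of single libraries or of the 3 that stand apart. Deviations from the group mean of a tumor and the D80 colon of the same mouse had a Pearson's r between 0.0572 and 0.254 across genes in 6 pairs, and the pairing comes from the mouse numbers in the titles. Some genes of the pathway lists, and the counts of the ketone body list, are not reported here. The code was tested on simulated data.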

Additional observations from a re-analysis of the deposited data

Results flagged for a closer look

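In groups of 4 or 5 libraries, 63 sets of values were examined for 1 library far from the others, and 3 had one, where chance gives about 5% of sets. *Cpt1a* was at 277 CPM in WT mouse 918 at D0, against 167 to 184 CPM in the other 3 WT mice of that stage. *Angptl4* was at 9.61 CPM in WT tumor 541, against 2.63 to 3.87 CPM in the other 4 WT tumors. *Slc16a1* was at 187 CPM in KO mouse 535 at D80, against 138 to 145 CPM in the other 3 KO mice. None of these 3 values came from the libraries that stand apart.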

How the results depend on the processing

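The 4 genotype comparisons and the 3 interactions had 0 members passing under every alternative, including each omission of 1 library. For D19 against D0 in WT, 3 members passed in a single fit of all libraries in place of 5, and omission of 1 library gave 3 to 6. In KO the omissions gave 2 to 7 in place of 5. For D80 against D0 in WT, 4 passed in place of 2 without the library that stands apart, and the omissions gave 2 to 4, with 4 only without that library. In KO they gave 5 to 8 in place of 7. For D80 against D19, DESeq2 called 2 members in WT in place of 0, and in KO 0 passed with at least 10 counts in each library in place of 1, with 0 to 1 over the omissions. For tumors against D80 colon, the mouse as a replicate block, which also leaves out libraries without a partner, gave 3 members in KO in place of 6 (as did omission of KO mouse 535 without a block), 8 in WT in place of 7, and 0 for the interaction, and the omissions gave 3 to 6 in KO and 5 to 7 in WT. The cause of these shifts was not tested. Shares over all genes were given above only for the mouse block within each genotype and for some fits without a library that stands apart. Those fits were D19 against D0 in KO and D80 against D0 in WT. For the other alternatives, whether all genes shifted alike is not shown here. Over all alternatives, 2178 values of single members were recomputed: 0 that had passed changed sign, 75 were lost, 23 were gained and 2080 kept their call, with 108 sign changes among values that passed in neither fit. The limits are the 3 to 5 libraries per group, the 3 libraries with fewer reads from long genes, and the mixture of cells in whole colon.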
